A study of Mus musculus with 12 samples.

Results

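The genotype by quercetin interaction in mouse liver was computed for each probe set as the log2 response to quercetin in POR-null mice minus the log2 response in wild-type mice. All 12 of the 12 arrays of the series entered it, 3 in each of 4 groups, with every probe set that was not a control. The groups were wild-type mice on the control diet, wild-type mice on quercetin, POR-null mice on the control diet and POR-null mice on quercetin. All mice were male, labelled C57BL/6, and 6 to 8 weeks old. They were kept for 14 days on a soya-free RM3 diet, and the control groups stayed on it. For the last 24 h the quercetin groups received that diet with 6.2 g of quercetin per kg, labelled as 7 mg for each mouse. Each array measured total RNA pooled from the whole livers of 3 mice, so the spread between arrays is a spread between pools. The labels give neither the kind of deletion nor the cells in which it acts, and they name the same strain for both genotypes. A positive interaction means that the quercetin arrays lay higher, relative to their controls, in POR-null liver than in wild type, and a negative one means the reverse.

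POR, cytochrome P450 reductase, passes electrons from NADPH to the microsomal P450 enzymes, and also to squalene monooxygenase and heme oxygenase. Liver without it cannot run most P450 reactions, which in hepatocytes include drug oxidation, bile acid synthesis and the lanosterol step of cholesterol synthesis. Quercetin is a flavonol of onions, apples and tea. The gut and liver conjugate it with glucuronic acid, sulfate and methyl groups, and it has been described as a ligand of the aryl hydrocarbon receptor and as an activator of the NRF2 antioxidant response. The comparison asks which responses to quercetin depend on POR.

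Before the results, the arrays were compared by their gene lists. Levels of Por itself were not used here, and the genotypes were taken as labelled. The 7 measured hepatocyte markers averaged between 13.0 and 13.25 log2 units in every array, all above the median of all values, 5.96, while 0 of 4 bile duct markers averaged above it. Array medians lay between 5.93 and 5.99. Wild-type control array 1 stood apart from arrays 2 and 3 of its group. Relative to the mean over all 12 arrays, its cholesterol synthesis genes averaged -0.26 against 0.27 and 0.26, and its macrophage markers averaged -0.02 against -0.54 and -0.50. The acute phase genes averaged highest in array 1 of the POR-null quercetin group, 0.82, with 0.23 and -0.01 in arrays 2 and 3. Array 3 of the same group had exocrine pancreas markers at 2.23, and arrays 1 and 2 at -0.60 and 0.05. Wild-type quercetin array 3 had macrophage markers at 0.48 against -0.32 and -0.28. In bulk liver RNA fewer cells of a type and less RNA per cell cannot be told apart.

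By limma, 0 of 22626 probe sets (0%) had an interaction at an adjusted p under 0.05, and the lowest adjusted p was 0.254. At an unadjusted p under 0.05 there were 1397 probe sets (6.17%), where 1131 are expected with no effect at all, 702 of them positive (3.1%) and 695 negative (3.07%). With 1 probe set for each gene, 739 of 12393 genes (5.96%) had an unadjusted p under 0.05, 368 positive (2.97%) and 371 negative (2.99%). Without wild-type control array 1, 1 probe set passed and 2411 had an unadjusted p under 0.05. With all 12 arrays, 1942 probe sets had an unadjusted p under 0.05 for the wild-type response (8.58%) and 1581 for the POR-null response (6.99%), and 0 had an adjusted p under 0.05 for either. Without wild-type control array 1, 151 passed for the wild-type response, and without POR-null control array 1, 4 passed for the POR-null response. Without POR-null control array 3, 3 passed for the latter. For the median gene the 95% interval of the interaction reached 0.338 log2 units to either side of its estimate. In 22626 simulated probe sets with the spread of these arrays, 200 were given an interaction by a shift of the POR-null quercetin arrays. Of interactions of 0.5 log2 units 0.2% were recovered, of those of 1 81.4% and of those of 1.5 94.7%. The simulated noise was independent between probe sets, without deviations of whole arrays such as those described above. Each simulation also held 200 interactions of the same size, and with fewer true ones the adjustment of p would be stricter. For both reasons the real arrays may recover less than these shares. Interactions of 0.5 log2 units were hardly recovered even in that setting.

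Among the 739 genes, 671 (90.8%) had responses of opposite sign in the genotypes, against 45.7% of all genes. The wild-type response was the larger one in 398 (53.9%), against 51.4% of all genes. A low p for a difference favours responses of opposite sign, so these shares describe the chosen genes only. The group that stood apart from the other 9 arrays differed from gene to gene. POR-null quercetin arrays lay wholly above the rest in 48 of the 739 genes and wholly below in 49, together 13.1% against 4.47% of all genes. Wild-type control arrays lay wholly above in 42 and below in 27 (9.34% against 3.58%). Wild-type quercetin arrays did so in 33 and 22 (7.44% against 1.35%), and POR-null control arrays in 14 and 22 (4.87% against 0.783%). A group that stands apart from all others itself makes a difference between the responses. These shares too therefore follow from how the genes were chosen and describe those genes only.

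**Figure D1:**
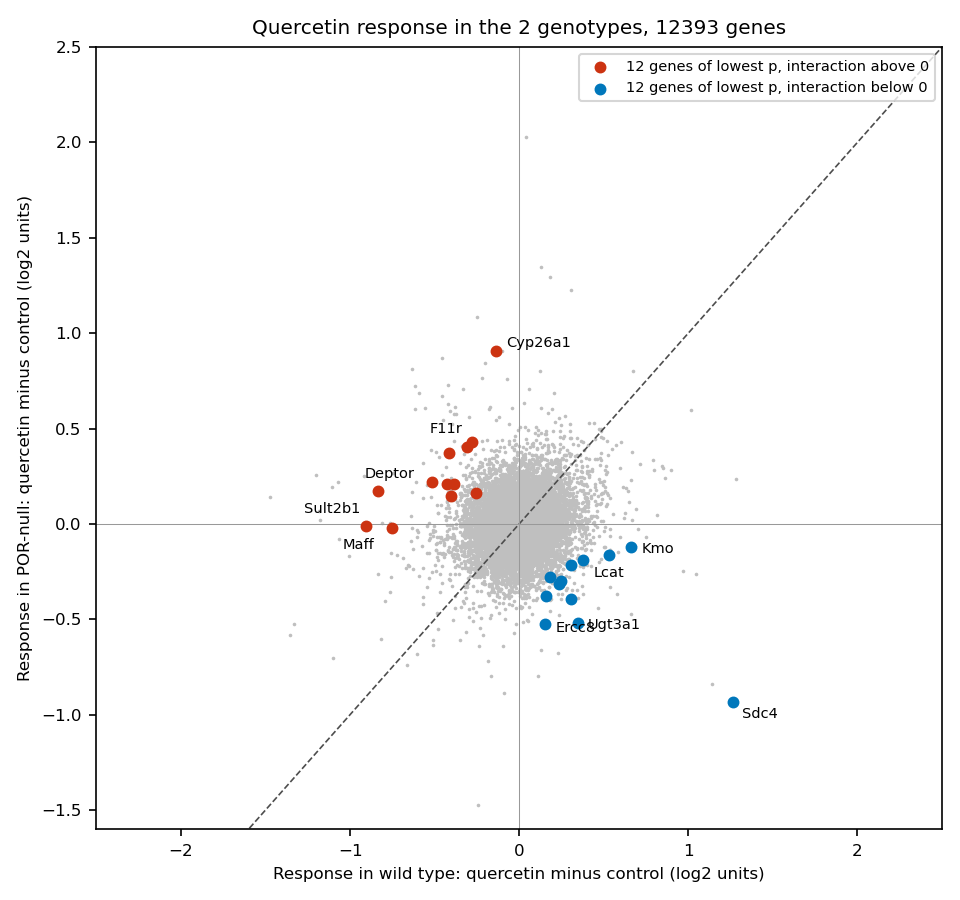
Each grey point is 1 of 12393 genes, with its quercetin response (quercetin minus control, log2 units) in wild type on the horizontal axis and in POR-null on the vertical axis; the dashed line marks equal responses. The 12 genes of lowest interaction p in each direction are coloured, and Sdc4 (1.27 in wild type, -0.93 in POR-null) and Cyp26a1 (-0.14 and 0.91) lie farthest from the line among those labelled.

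The genes of lowest interaction p in the positive direction were Deptor, F11r, Ola1, Cxadr, Maff, Grwd1, Cyp26a1, Ifrd1, Gadd45gip1, Parp16, Lsr and Sult2b1, with adjusted p from 0.601 to 0.798 by limma. Deptor encodes an inhibitory subunit of the mTOR kinase complexes. It read 9.39, 9.57 and 9.72 in the wild-type controls and 8.47, 8.73 and 8.97 with quercetin. In POR-null liver it read 8.96, 9.43 and 9.43 in controls and 9.40, 9.41 and 9.54 with quercetin. The wild-type diet groups did not overlap and the POR-null ones did, and the interaction was 1.01 ± 0.20 (SE; limma adjusted p = 0.601). The other probe sets of Deptor gave 0.16 and -0.01, so this value rests on 1 of 3 probe sets.

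Cyp26a1, the P450 that breaks down retinoic acid and needs POR for it, was high in 1 group only. It read 7.89, 8.30 and 8.78 with quercetin in POR-null liver, above all 9 other arrays, whose highest value was 7.54. Wild-type arrays lay between 6.84 and 7.25 on either diet. The interaction was 1.04 ± 0.25 (SE; adjusted p = 0.671). Of the 29 measured retinoid genes 3 had an unadjusted p under 0.05 (10.3% against 5.96% of all genes), all positive. Beside Cyp26a1 these were the retinol dehydrogenase Rdh10 (0.31 ± 0.15) and the retinaldehyde dehydrogenase Aldh1a2 (0.25 ± 0.11), whose arrays all lay under 4.1 log2 units, and the list's median was 0.04.

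Maff, a small MAF transcription factor, showed the opposite layout. Its wild-type controls read 6.44, 6.95 and 6.52, and all 9 other arrays lay between 5.86 and 5.99. The interaction of 0.73 ± 0.17 therefore came from the wild-type control group alone. Sult2b1, a sulfotransferase of cholesterol and other hydroxysteroids, had the same layout, with wild-type controls at 6.92, 7.24 and 7.61 and all other arrays between 6.08 and 6.56. Its interaction was 0.90 ± 0.25. Gsta4, a glutathione transferase of lipid aldehydes, read 9.29 to 9.37 in wild-type controls and 8.22 to 8.92 elsewhere, and its interaction was 0.57 ± 0.16. Nampt, the rate-limiting enzyme of NAD salvage, read 8.27 to 8.52 in wild-type controls and 7.49 to 8.02 elsewhere (0.60 ± 0.18). In these 4 genes the POR-null arrays of both diets lay below every wild-type control array and overlapped each other.

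In the negative direction the genes of lowest p were Lcat, Sdc4, Kmo, Epb41l1, Ercc8, Olfr16, Pkdcc, Ugt3a1, Sprr2d, Myoz3, Cacng7 and Casp4, again with adjusted p from 0.601 to 0.798. Sdc4, the cell surface heparan sulfate proteoglycan syndecan 4, had the largest value of the 24. Its wild-type controls read 10.04, 8.51 and 8.41 and the wild-type quercetin arrays 10.77, 10.10 and 9.89, so that array 1 of the controls lay among the quercetin arrays. POR-null controls read 9.50, 9.33 and 9.54 and POR-null quercetin arrays 8.76, 8.37 and 8.44, which did not overlap. The interaction was -2.20 ± 0.46 (SE; adjusted p = 0.601). Without wild-type control array 1 it was -2.73 with an adjusted p of 0.00205, the single call in that fit. A second Sdc4 probe set gave 0.59 ± 0.27, the opposite sign, and the mean of both gave -0.81.

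Lcat, the plasma enzyme that esterifies cholesterol on high density lipoprotein, had the lowest p among the genes. It read 10.62, 10.64 and 10.63 in wild-type controls and 10.93, 11.07 and 11.03 with quercetin. In POR-null liver it read 10.71, 10.66 and 10.77 in controls and 10.52, 10.43 and 10.63 with quercetin. The diet groups overlapped in neither genotype and were ordered in opposite directions, with an interaction of -0.57 ± 0.11 (SE; adjusted p = 0.601). With each of the 12 arrays left out in turn it stayed between -0.62 and -0.52. Only 1 probe set measured Lcat.

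Kmo, which hydroxylates kynurenine on the route from tryptophan to NAD, read 8.34, 8.17 and 8.09 in wild-type controls and 8.73, 8.77 and 9.09 with quercetin. The POR-null arrays, at 8.29 to 8.69 in controls and 8.28 to 8.43 with quercetin, all lay below the wild-type quercetin arrays, and the interaction was -0.79 ± 0.17. Ercc8, a factor of transcription-coupled DNA repair, was low in the POR-null quercetin arrays, at 7.19, 7.54 and 7.60, while the other 9 arrays lay between 7.73 and 8.09. Its interaction was -0.68 ± 0.16, but its other 3 probe sets gave between -0.08 and 0.06. Ugt3a1, a UDP-glycosyltransferase, had an interaction of -0.86 ± 0.22 with POR-null quercetin arrays at 7.20 to 7.52. A second Ugt3a1 probe set gave -0.36 ± 0.23. Epb41l1, a cytoskeletal linker of the protein 4.1 family, gave -0.69 ± 0.16 and its other probe sets -0.14 and 0.06.

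**Figure D2:**
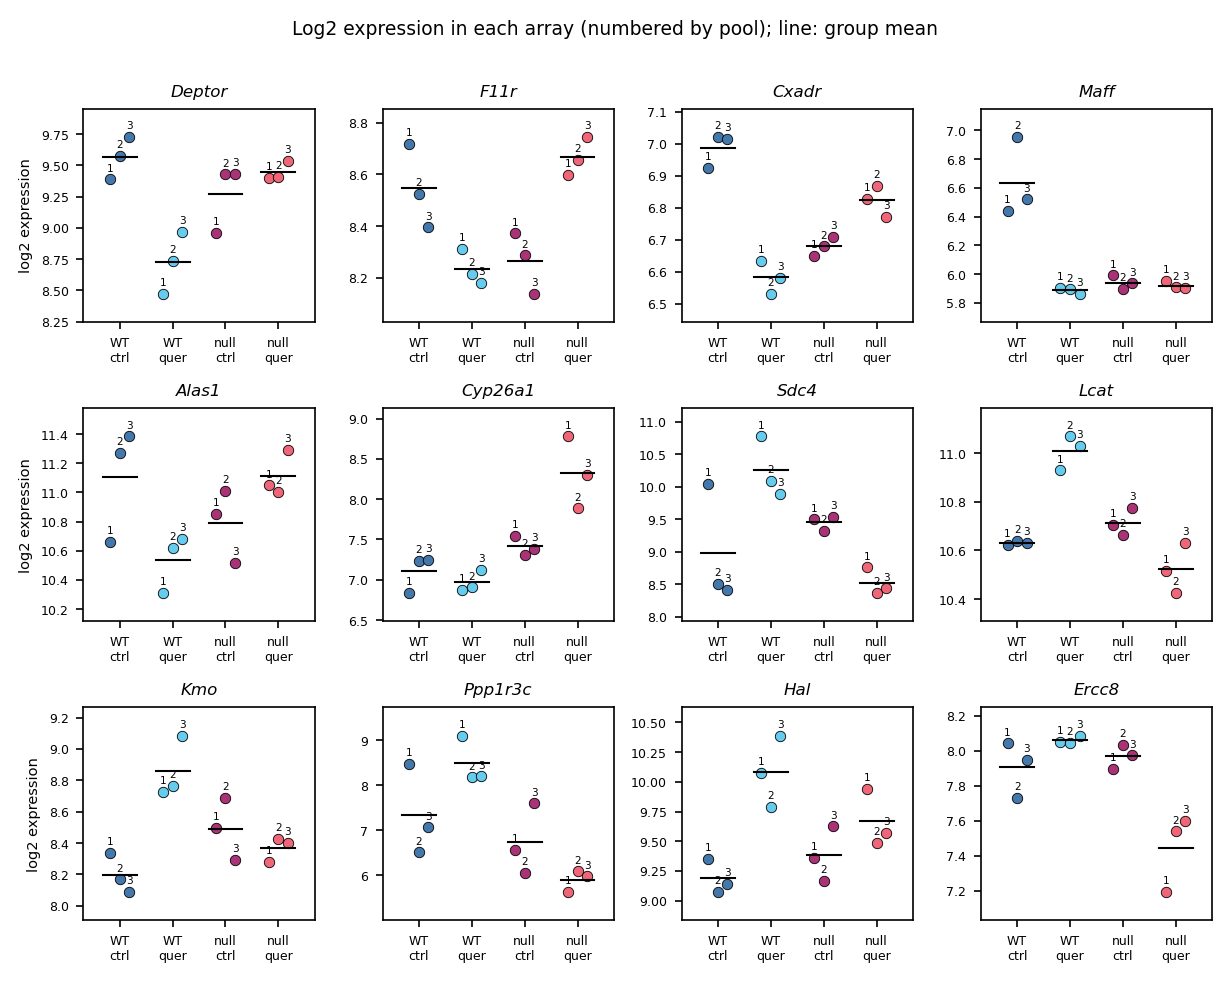
Log2 expression of 12 genes in each array, with the groups on the horizontal axis (WT, wild type; null, POR-null; ctrl, control diet; quer, quercetin diet), array numbers beside the points and a line at each group mean. Maff is high in the wild-type controls only (6.44 to 6.95), Cyp26a1 is high in the POR-null quercetin arrays only (7.89 to 8.78), Lcat is ordered in opposite directions in the genotypes, and wild-type control array 1 lies among the quercetin arrays for Sdc4.

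The lowest p of all probe sets belonged to 1 of 3 probe sets of Pttg1, the gene of securin, which guards chromosome separation; it was chosen after its values were seen. It read 5.83, 5.69 and 6.08 in wild-type controls and 5.15, 5.35 and 5.50 with quercetin. In POR-null liver it read 4.82, 4.999 and 4.97 in controls and 5.66, 6.13 and 5.57 with quercetin. The interaction was 1.38 ± 0.21 (SE; adjusted p = 0.254), and the diet groups overlapped in neither genotype. The other Pttg1 probe sets gave 0.73 ± 0.23 and 0.25 ± 0.17, both positive. Of 308 genes with an unadjusted p under 0.05 and further probe sets, 290 of the 472 further probe sets (61.4%) had the same sign, against 54.7% over all genes. Of the 472, 43 (9.11%) had the same sign and an unadjusted p under 0.05, and 4 had such a p with the opposite sign. Over all probe sets 3.1% had such a p with a positive interaction and 3.07% with a negative one. Probe sets of a gene were read from the same pools, so their agreement does not replicate the pools.

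In 149 probe sets (0.659%) and, with 1 probe set a gene, in 82 genes (0.662%) the control and quercetin arrays overlapped in neither genotype and were ordered in opposite directions, 40 higher with quercetin in POR-null (0.323%) and 42 lower (0.339%). More genes, 139 (1.12%), did not overlap in either genotype with the same direction in both. Counting each genotype by itself, these genes included, the diet groups did not overlap for 1475 genes in wild type (11.9%) and 1791 in POR-null (14.5%). F11r, the tight junction protein JAM-A, read 8.72, 8.53 and 8.39 in wild-type controls and 8.31, 8.21 and 8.18 with quercetin. In POR-null liver its controls read 8.37, 8.29 and 8.14 and its quercetin arrays 8.60, 8.66 and 8.74. The interaction was 0.71 ± 0.14, while a second F11r probe set of lower signal gave 0.00 ± 0.17.

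Further genes of this crossed kind that were higher with quercetin in POR-null were Ola1, an ATPase (0.64 ± 0.14), the stress kinase gene Mapk9 (0.54 ± 0.15), the small GTPase gene Rala (0.49 ± 0.14), the Notch-modifying glycosyltransferase gene Rfng (0.53 ± 0.17) and the phosphatase inhibitor gene Ppp1r14b (0.49 ± 0.16). Further probe sets gave -0.12 and -0.31 for Mapk9 and -0.05 for Rfng, of the opposite sign, 0.05 for Ppp1r14b, 0.11 and 0.27 for Rala and -0.02 to 0.37 for Ola1. Those lower with quercetin in POR-null were Lcat, Olfr16 (-0.55 ± 0.14), Sprr2d (-0.70 ± 0.19), the sodium-calcium exchanger gene Slc8a2 (-0.41 ± 0.13), Angptl7 (-0.47 ± 0.16) and Lrwd1 (-0.42 ± 0.15, with 0.13 by a second probe set). All readings of Olfr16 lay between 5.66 and 6.17, close to the median of all probe sets.

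Genes of cell junctions and surface proteoglycans had the second highest share of low p among the 30 pathway lists, 7 of 31 genes (22.6% against 5.96% of all genes). The lists were chosen with earlier results of these data known, and F11r, Cxadr, Sdc4 and Epb41l1 are also among the genes of lowest p. This share and rank were thus partly set in advance. The list had no common direction, since 13 of 31 were positive and the median was -0.10 (0.04 without wild-type control array 3). Of the 7, the positive ones were F11r and Cxadr, the coxsackievirus and adenovirus receptor of tight junctions. Cxadr read 6.92, 7.02 and 7.01 in wild-type controls and 6.63, 6.53 and 6.58 with quercetin. POR-null controls read 6.65, 6.68 and 6.71 and POR-null quercetin arrays 6.83, 6.87 and 6.77, so that its diet groups crossed as well. Its interaction was 0.55 ± 0.12, and 3 further probe sets gave 0.09 to 0.17. The negative ones were Sdc4, Epb41l1 and, named after their values were seen, the glypican gene Gpc1 (-0.69 ± 0.19), the plakoglobin gene Jup (-0.53 ± 0.15) and the p120 catenin gene Ctnnd1 (-0.43 ± 0.14). Without wild-type control array 1 Jup gave -0.63 and Gpc1 -0.80. Lsr, a receptor of lipoproteins that also sits at tricellular junctions and stood on the list of lowest p, gave 0.42 ± 0.11, with its wild-type quercetin arrays (8.94 to 9.05) below all others.

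Genes of the aryl hydrocarbon receptor had interactions of about the size seen over all genes, with a median size of 0.10 against 0.12. The list of this receptor had 9 measured genes, among them, beside targets, the receptor gene Ahr and its partner gene Arnt. Of these 9 genes 0 had an unadjusted p under 0.05 (0% against 5.96% of all genes), which in so short a list does not set them apart. Their interactions ranged from -0.27 to 0.21. For 8 of the 9 the whole 95% interval lay within 1 log2 unit of 0. Cyp1a1, the most inducible target of that receptor, read 6.00 to 6.29 in wild-type controls, 6.12 to 6.34 with quercetin, 6.11 to 6.33 in POR-null controls and 6.10 to 6.20 with quercetin, and all 4 groups overlapped. Its interaction was -0.13 ± 0.15 (95% interval -0.45 to 0.19). Cyp1a2, the abundant hepatic member, gave 0.21 ± 0.27 (-0.37 to 0.79), Cyp1b1 0.08 ± 0.18 (-0.32 to 0.47) and the quinone reductase gene Nqo1, which NRF2 also drives, 0.04 ± 0.17 (-0.32 to 0.39). Tiparp, a receptor-induced ADP-ribosyltransferase, gave -0.20 ± 0.20. The signs of Cyp1b1 and Nqo1 turned when single arrays were left out, and 2 further Cyp1b1 probe sets gave -0.07 and -0.09.

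Cyp3a11, the main PXR-driven drug oxidase of mouse liver, had the narrowest interval of the drug-receptor genes named here. It read 12.61, 12.74 and 12.77 in wild-type controls and 12.74, 12.76 and 12.63 with quercetin. POR-null controls read 13.17, 13.07 and 12.99 and POR-null quercetin arrays 13.09, 13.06 and 13.07. The interaction was -0.01 ± 0.11 (95% interval -0.24 to 0.22), with either sign under quantile normalization, median centring or single arrays left out. Cyp2b10, the marker gene of CAR, read 7.38, 7.53 and 8.27 in wild-type controls and 9.20, 8.01 and 7.38 with quercetin. In POR-null liver it read 12.68, 12.28 and 11.24 in controls and 12.47, 12.73 and 12.50 with quercetin. The responses, 0.47 ± 0.40 and 0.50 ± 0.40, differed by 0.03 ± 0.56, and the interval of -1.17 to 1.22 was too wide to show a difference of up to 1 log2 unit. Further Cyp2b10 probe sets gave -0.20 and 0.51. Probe sets of these P450 families can also bind transcripts of close paralogs.

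Of the 29 measured genes on the CAR and PXR list, which also holds the receptor genes Nr1i2 and Nr1i3, 17 were positive (58.6% against 50.1% of all genes). Relative to all arrays the list averaged 0.58, 0.20 and 0.02 in POR-null controls and 0.40, 0.46 and 0.43 with quercetin. Its median interaction was 0.10, with 0.009 without POR-null control array 3 and 0.175 without POR-null control array 1. At an unadjusted p under 0.05 there were 2 (6.9% against 5.96% of all genes), both positive. Cyp2c29 gave -0.17 ± 0.21 (-0.62 to 0.28). Cyp2c55 gave 0.48 ± 0.62 (-0.84 to 1.80), and its POR-null controls spread from 7.46 to 9.85. The 2 with a low p were Alas1 and Slco1a4, an organic anion uptake transporter (0.72 ± 0.30), whose POR-null control array 3 read 8.18 against 9.14 and 9.20 in arrays 1 and 2. Without that array Slco1a4 gave 0.39. Cyp4a14, the PPARA-driven fatty acid hydroxylase, gave -0.24 ± 0.29, and Cyp7a1, which starts the classical route from cholesterol to bile acids, 0.15 ± 0.39. The levels of Cyp7a1 were 8.58 to 9.54 in the wild-type arrays and 10.46 to 11.83 in the POR-null arrays, so that the genotypes differed far more than the diets within either.

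Alas1, the rate-limiting enzyme of heme synthesis in liver, had the lowest p of the CAR and PXR list. It read 10.66, 11.27 and 11.38 in wild-type controls and 10.31, 10.62 and 10.68 with quercetin. POR-null controls read 10.85, 11.01 and 10.52 and POR-null quercetin arrays 11.05, 11.002 and 11.29. Array 1 of the wild-type controls lay just under the highest wild-type quercetin array, and the interaction was 0.89 ± 0.25 (SE; adjusted p = 0.798). A second Alas1 probe set gave 1.11 ± 0.22 (adjusted p = 0.601), with wild-type controls at 8.98 to 9.36 and wild-type quercetin arrays at 7.97 to 8.63, which did not overlap. Of the 21 measured heme genes 3 had an unadjusted p under 0.05 (14.3% against 5.96% of all genes), all positive. The others were Urod, a decarboxylase of the heme pathway (0.39 ± 0.17), and the heme transporter gene Slc48a1 (0.59 ± 0.27), whose second probe set gave 0.01. The list's median was -0.01, and Hmox1, the inducible heme oxygenase that takes its electrons from POR, gave -0.26 ± 0.34.

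Among 26 further P450 genes 4 had an unadjusted p under 0.05 (15.4% against 5.96% of all genes). Cyp26a1 was positive. Cyp4v3, a fatty acid hydroxylase, gave -0.48 ± 0.14, and its second probe set gave -0.53 ± 0.17. Cyp2d26 gave -0.38 ± 0.14 and Cyp2d10, named after its value was seen, -0.30 ± 0.12. The POR-null quercetin arrays of Cyp4v3, at 9.36, 9.57 and 9.66, lay below all 9 other arrays, whose lowest value was 9.72.

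**Figure D3:**
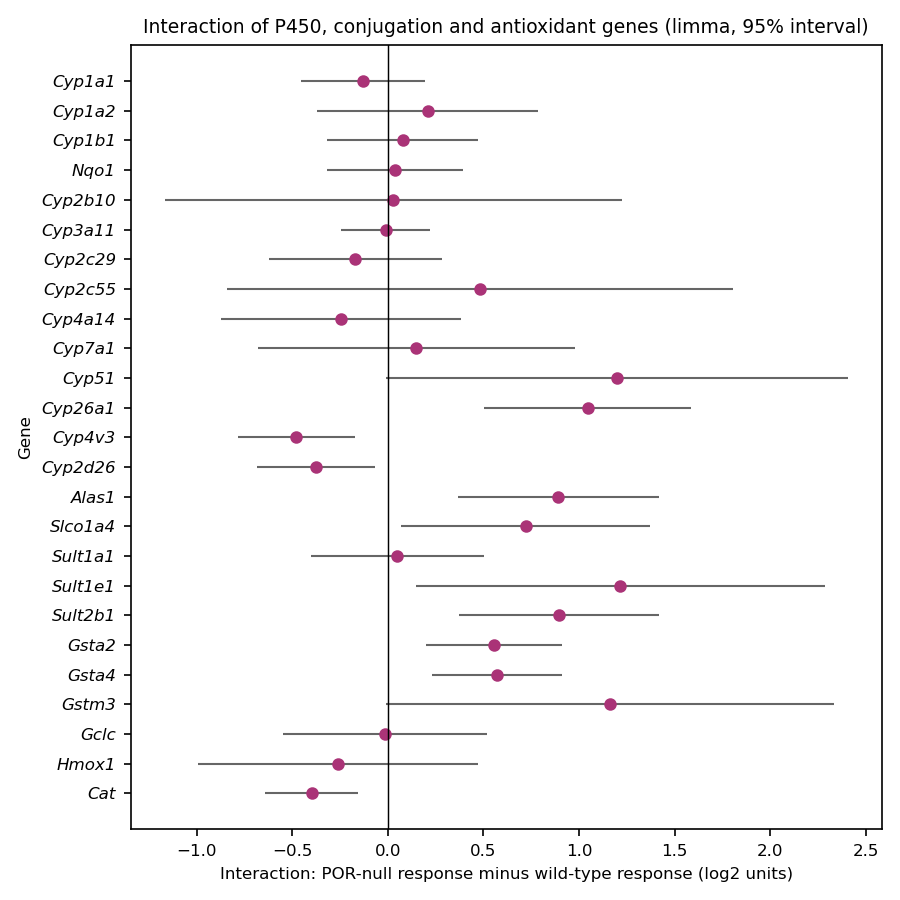
Interaction (POR-null response minus wild-type response, log2 units) of 25 P450, heme, transport, conjugation and antioxidant genes, with 95% limma intervals as horizontal bars and a vertical line at 0. Cyp3a11, Cyp1a1 and Nqo1 have narrow intervals across 0, Cyp2b10 and Cyp2c55 have wide ones, and Cyp26a1, Alas1, Sult2b1, Gsta2 and Gsta4 lie above 0 at an unadjusted p under 0.05.

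A list of conjugation and transport genes drawn up for flavonoids had the highest share of low p of any pathway list, 5 of 22 (22.7% against 5.96% of all genes). Its median was 0.09. Positive were Sult2b1, Sult1e1 and Slco1a4, and negative were Slco1a1 and Sult5a1. Whether these 5 act on quercetin was not tested, so the share is not a result about flavonoid conjugation. Sult1a1, the phenol sulfotransferase that acts on flavonoids, gave 0.05 ± 0.21 (95% interval -0.40 to 0.50). Sult1e1, the estrogen sulfotransferase, gave 1.22 ± 0.50. It read 4.26 to 4.76 in the wild-type arrays, near the low end of the scale, 6.66, 7.28 and 5.55 in POR-null controls and 8.34, 7.09 and 8.10 in POR-null quercetin arrays, which overlapped. Without POR-null control array 3 Sult1e1 gave 0.74. Slco1a1, an uptake transporter that is more abundant in male liver, gave -0.91 ± 0.40 (-0.47 without POR-null quercetin array 1), and Sult5a1, named after its value was seen, -0.59 ± 0.26. Ugt1a1 was not measured by a probe set with a single gene symbol.

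Of 40 NRF2 and glutathione genes 6 had an unadjusted p under 0.05 (15% against 5.96% of all genes). These were 5 positive and 1 negative, and the list's median was 0.09. Gsta2 read 7.81, 7.85 and 7.88 in wild-type controls and 7.37, 7.89 and 7.76 with quercetin. POR-null controls read 7.95, 7.90 and 7.75 and POR-null quercetin arrays 8.19, 8.28 and 8.30, above all 9 other arrays. Its interaction was 0.56 ± 0.17, close to that of Gsta4. Pgd and Tkt of the pentose phosphate pathway and the plasma peroxidase gene Gpx3, named after their values were seen, gave 0.91 ± 0.28, 0.52 ± 0.20 and 0.55 ± 0.23. Cat, the catalase gene, was the negative one, with wild-type quercetin arrays at 11.31, 11.35 and 11.32 above all 9 others (highest 11.24). It gave -0.40 ± 0.11, and a second Cat probe set gave -0.66 ± 0.22. Gclc, the rate-limiting enzyme of glutathione synthesis, gave -0.02 ± 0.25 with responses of -0.32 and -0.33, and -0.33 ± 0.31 by a second probe set. Gstm3 gave 1.16 ± 0.55, its POR-null controls spreading from 9.54 to 11.79, and 0.68 without POR-null control array 2.

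The list of cholesterol synthesis genes, which also holds targets of the sterol-sensing factor SREBP2, had the largest median interaction outside the pancreas markers. Of 22 measured members 17 were positive (77.3% against 50.1% of all genes), and the median was 0.41 (0.00 over all genes). Only 1 had an unadjusted p under 0.05 (4.55% against 5.96% of all genes). That member was Ebp, a sterol isomerase, at 0.27 ± 0.12. Cyp51, the lanosterol demethylase and itself a POR-dependent P450, read 6.73, 7.89 and 7.60 in wild-type controls and 5.09, 7.12 and 6.47 with quercetin. POR-null controls read 7.53, 7.05 and 6.60 and POR-null quercetin arrays 7.24, 6.97 and 7.03, and the diet groups overlapped in both genotypes. Its interaction was 1.20 ± 0.57 (95% interval -0.01 to 2.40), and its other probe sets gave 0.48 and 0.41. Fdps, the farnesyl diphosphate synthase gene, gave 1.29 ± 0.63, and Idi1, Sqle and Hmgcs1, named after their values were seen, gave 1.46 ± 0.83, 1.17 ± 0.62 and 0.75 ± 0.47.

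Single arrays carried much of the cholesterol pattern. Taken over the 22 genes and set against all arrays, the list averaged -0.26, 0.27 and 0.26 in wild-type controls and -0.63, 0.08 and -0.21 with quercetin. It was 0.37, 0.05 and -0.29 in POR-null controls, and 0.09, 0.18 and 0.10 with quercetin. The POR-null diet groups overlapped, and the wild-type quercetin arrays included the lowest value of the 12. The list's median stayed positive with any array left out, from 0.24 without POR-null control array 3 to 0.54 without POR-null control array 1. Without wild-type quercetin array 1 Cyp51 gave 0.63, Idi1 0.69, Sqle 0.68 and Fdps 0.84, and without POR-null control array 3 Hmgcs1 gave 0.35.

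The promoters of these genes are shown because the list had the largest median of the pathway lists; no binding was measured. Sterol-responsive promoters are known to pair sites for SREBP2, the sterol-sensing transcription factor, with CCAAT boxes bound by NF-Y. Of the 22 genes 18 matched the RefSeq promoter table (GRCm38.p6), and the 250 bases before the start were searched on both strands. CCAAT, which reads ATTGG on the other strand, was in 17 of the 18, all but Scap, against 11120 of 32851 promoters (33.8%). The sterol response element in the form TCACNCCAC was in 1 of the 18, Hmgcs1, against 346 of all promoters (1.05%). For both motifs the list was counted by gene, by a match in any of its promoters, and the comparison by single promoter. That way of counting can only raise the list's share. The list was drawn up from cholesterol synthesis genes and SREBP2 targets. Its high share of CCAAT thus goes with how it was made and is not a result about quercetin or POR. Matches to either motif are in capitals in the sequences of Cyp51 (chr5:4104698-4104947, minus strand), Hmgcs1 (chr13:119690101-119690350, plus strand) and Idi1 (chr13:8885356-8885605, plus strand). The windows hold 1, 3 and 2 CCAAT matches. The sterol response element is in the Hmgcs1 window alone, so the capitals of Cyp51 and Idi1 are CCAAT only. A match describes letters and is not a measured site.
Cyp51: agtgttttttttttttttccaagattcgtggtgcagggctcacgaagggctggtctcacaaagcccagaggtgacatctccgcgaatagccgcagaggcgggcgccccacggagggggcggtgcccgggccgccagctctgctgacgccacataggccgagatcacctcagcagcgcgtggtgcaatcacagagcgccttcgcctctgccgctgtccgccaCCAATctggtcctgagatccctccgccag
Hmgcs1: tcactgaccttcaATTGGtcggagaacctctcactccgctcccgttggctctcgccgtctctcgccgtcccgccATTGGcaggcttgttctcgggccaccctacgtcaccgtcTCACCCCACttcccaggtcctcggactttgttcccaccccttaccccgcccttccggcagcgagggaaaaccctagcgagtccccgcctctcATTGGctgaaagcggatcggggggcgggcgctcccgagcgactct
Idi1: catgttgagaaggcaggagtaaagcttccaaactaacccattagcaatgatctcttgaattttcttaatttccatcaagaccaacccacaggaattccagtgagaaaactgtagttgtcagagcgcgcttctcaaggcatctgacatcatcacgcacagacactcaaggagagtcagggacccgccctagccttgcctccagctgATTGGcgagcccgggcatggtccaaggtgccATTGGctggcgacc

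Other lipid genes differed in both directions. Of 26 fatty acid synthesis genes 5 had an unadjusted p under 0.05 (19.2% against 5.96% of all genes). The fatty acid elongases Elovl2 (-0.62 ± 0.19), Elovl5 (-0.50 ± 0.20) and Elovl3 (-1.22 ± 0.54) were negative, while Dgat1, which makes triglyceride, was positive (0.51 ± 0.17). Elovl2 read 9.47, 9.54 and 9.70 with quercetin in POR-null liver, below the POR-null controls at 9.85, 9.94 and 9.93, and its wild-type diet groups overlapped. A second Elovl5 probe set gave -0.56 ± 0.22. Among lipid droplet genes the acyltransferase gene Mogat1 gave 0.54 ± 0.21. Fabp1, the fatty acid binding protein of liver, gave -0.36 ± 0.15, with POR-null quercetin arrays at 12.18, 12.47 and 12.45 below all 9 others, and -0.80 ± 0.21 by a second probe set. Of 33 PPARA and fatty acid oxidation genes 18 were positive with a median of 0.01, and Acot2, a mitochondrial acyl-CoA thioesterase, gave 0.60 ± 0.17.

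Glycogen genes held 1 of the largest differences. Ppp1r3c targets protein phosphatase 1 to glycogen and so promotes its synthesis. It read 8.48, 6.51 and 7.07 in wild-type controls and 9.10, 8.18 and 8.20 with quercetin. POR-null controls read 6.56, 6.05 and 7.60 and POR-null quercetin arrays 5.63, 6.09 and 5.97, and the diet groups overlapped in both genotypes. The interaction was -1.98 ± 0.61 (SE; adjusted p = 0.798), and a second, dimmer probe set gave -1.46 ± 0.35. Without wild-type control array 1 it was -2.55. Pygl, the liver glycogen phosphorylase that breaks glycogen down, gave -0.54 ± 0.25. Of 29 glucose and glycogen genes 20 were positive and the median was 0.07, on the other side of 0 from Ppp1r3c and Pygl.

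Urea cycle and amino acid genes leaned to the negative side, with 13 of 38 positive (34.2% against 50.1% of all genes) and a median of -0.11. At an unadjusted p under 0.05 there were 3 (7.89% against 5.96% of all genes). In this list the median response to quercetin was 0.24 in wild type and 0.10 in POR-null. Hal, the histidine ammonia-lyase, read 9.35, 9.07 and 9.14 in wild-type controls and 10.07, 9.79 and 10.39 with quercetin, which did not overlap. POR-null controls read 9.36, 9.17 and 9.62 and POR-null quercetin arrays 9.94, 9.49 and 9.57, which did, and the interaction was -0.61 ± 0.22. Gldc, of the glycine cleavage system, gave -0.56 ± 0.23, and Agxt, which turns glyoxylate into glycine, -0.47 ± 0.20 (-0.26 without wild-type quercetin array 3). In these 3 genes both genotypes had the same direction and the wild-type response was the larger. The POR-null controls of the list (0.09, 0.04 and -0.12 relative to all arrays) already lay above the wild-type controls (-0.15, -0.21 and -0.21).

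Of the genes of tryptophan breakdown and NAD synthesis, 3 of 16 had an unadjusted p under 0.05 (18.8% against 5.96% of all genes), Kmo, Nampt and Nmnat1. Nmnat1, the nuclear enzyme that completes NAD, read 6.08, 5.73 and 5.51 in POR-null controls and 6.15, 6.59 and 6.39 with quercetin, and its wild-type groups overlapped (6.50 to 7.00 and 6.29 to 7.03). Its interaction was 0.65 ± 0.28, and a second probe set gave 0.53 ± 0.29. A second Nampt probe set gave 0.29 ± 0.17. Stk11, the kinase LKB1 that activates AMPK, gave 0.36 ± 0.14, and a second probe set 0.06.

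By group mean, clock and immediate early genes were highest in the wild-type controls, though single arrays overlapped with other groups. Of 21 clock genes 15 were positive (71.4% against 50.1% of all genes), and the median was 0.22. At an unadjusted p under 0.05 there were 4 (19% against 5.96% of all genes), all positive. The list's mean was 0.04, 0.34 and 0.29 in wild-type controls and -0.15, -0.12 and 0.10 with quercetin, against -0.19 to 0.06 in the POR-null arrays of either diet. Bhlhe40, a clock repressor, read 7.75, 7.85 and 7.95 in wild-type controls and 6.79, 7.26 and 7.59 with quercetin. In POR-null liver it read 7.50 to 7.82 in controls and 7.74 to 7.92 with quercetin, and the interaction was 0.80 ± 0.22. Per2 gave 0.39 ± 0.17 (0.02 by a second probe set) and Nr1d1, which encodes REV-ERB alpha, 0.42 ± 0.18. Dbp, a clock output factor named after its value was seen, gave 1.62 ± 0.72, and its wild-type quercetin arrays spread from 5.89 to 8.43. The hour at which the mice were killed is not in the labels, so its part in this pattern was not tested.

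Of 36 immediate early and ERK feedback genes 25 were positive. At an unadjusted p under 0.05 there were 4 positive and 1 negative (13.9% together, against 5.96% of all genes). Jun read 6.92, 7.18 and 6.88 in wild-type controls and 6.02, 6.27 and 5.50 with quercetin, and 6.33, 6.99 and 6.09 in POR-null controls and 6.79, 6.22 and 6.17 with quercetin. The interaction was 0.99 ± 0.33, with 1.19 ± 0.46 by a second probe set. For Myc the POR-null quercetin arrays (6.31, 5.88 and 6.71) lay above the POR-null controls (5.79, 5.86 and 5.37). Its interaction was 1.05 ± 0.32, and part of it came from wild type, where the response was negative. The fourth positive gene beside Jun, Myc and Maff was Rgs16, a regulator of G protein signalling named after its value was seen (0.96 ± 0.34), and the negative one was Fosb (-0.41 ± 0.14). Heat shock genes had 17 of 23 positive and a median of 0.19, but 0 had an unadjusted p under 0.05. The inducible chaperone gene Hspa1a gave 0.24 ± 0.12, from readings of 3.81 to 4.23, near the bottom of the scale.

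Genes of endoplasmic reticulum stress leaned the other way. Their list holds chaperones and also transcription factors, stress sensors and enzymes. Of 31 genes 8 were positive (25.8% against 50.1% of all genes), and the median was -0.10. At an unadjusted p under 0.05 there were 6 (19.4% against 5.96% of all genes), 5 of them negative. Without POR-null quercetin array 2 the median was -0.03. Hsp90b1, the chaperone GRP94, read 9.89, 9.29 and 9.45 in wild-type controls and 9.98, 10.19 and 10.08 with quercetin. POR-null controls read 9.78, 9.92 and 10.31 and POR-null quercetin arrays 9.84, 9.90 and 10.18, which overlapped, and the interaction was -0.56 ± 0.22. A second Hsp90b1 probe set gave -0.72 ± 0.22. Calr, the lectin chaperone calreticulin, gave -0.56 ± 0.19, with further probe sets at -0.45 and -0.34. Hyou1, Pdia3 and Derl3, named after their values were seen, gave -0.46 ± 0.20, -0.43 ± 0.18 and -0.51 ± 0.22. The positive one was Chac1, a glutathione-degrading enzyme of the ATF4 branch (0.43 ± 0.18). Wild-type control array 1 read higher than arrays 2 and 3 for Hsp90b1 and Calr, and without it they gave -0.74 and -0.74.

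**Figure D4:**
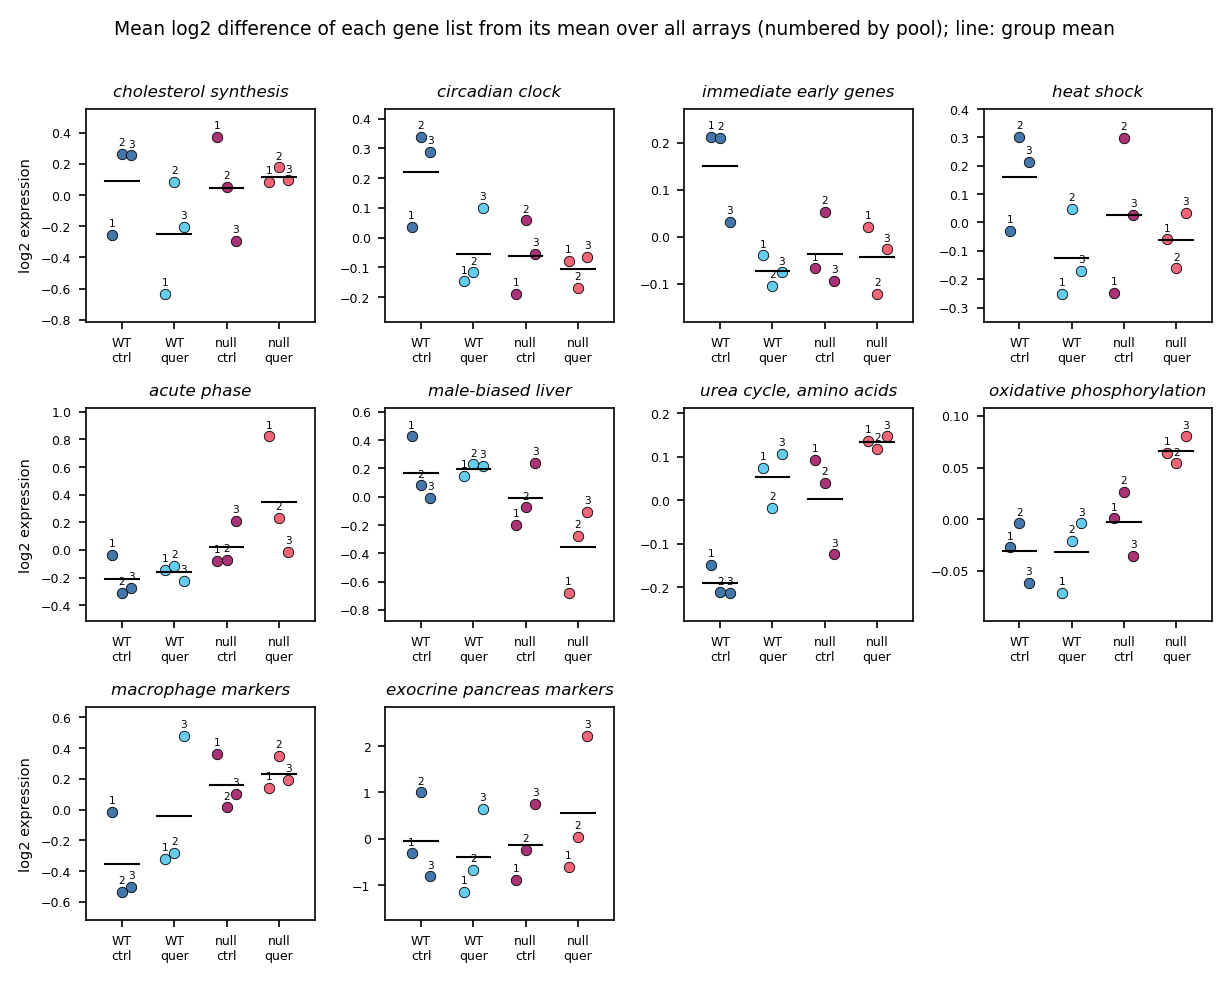
Mean log2 expression of 10 gene lists in each array, relative to the mean of each gene over all 12 arrays, with groups on the horizontal axis, array numbers beside the points and a line at each group mean. Clock genes are highest in wild-type control arrays 2 and 3 (0.34 and 0.29), acute phase genes in POR-null quercetin array 1 (0.82), exocrine pancreas markers in POR-null quercetin array 3 (2.23), and oxidative phosphorylation genes in all 3 POR-null quercetin arrays.

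Oxidative phosphorylation subunits gave small values, mostly positive. Of 55 genes 44 were positive (80%), the median was 0.07 and 2 had an unadjusted p under 0.05 (3.64%), fewer than the share over all genes. The list's mean was 0.06, 0.05 and 0.08 in the POR-null quercetin arrays, above all other arrays, whose highest was 0.03. Ndufa8, of complex I, read 9.92, 9.99 and 9.77 in POR-null controls and 10.20, 10.12 and 10.06 with quercetin, and its interaction was 0.34 ± 0.12. Uqcrc1, a core subunit of complex III, gave 0.26 ± 0.10, and its diet groups crossed. Its wild-type controls read 10.61, 10.53 and 10.62 and its wild-type quercetin arrays 10.43, 10.46 and 10.50.

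Bile acid genes had 8 of 28 positive (28.6% against 50.1% of all genes) and a median of -0.07. At an unadjusted p under 0.05 there were 3 (10.7% against 5.96% of all genes), all negative. They were Amacr, a racemase of bile acid side chains (-0.91 ± 0.36), Hsd3b7, which acts on the sterol ring (-0.53 ± 0.24), and Abcb4, the phospholipid exporter of bile (-0.29 ± 0.14). In mTOR and autophagy genes 20 of 29 were positive, and beside Deptor the autophagy receptor gene Sqstm1 gave 0.24 ± 0.10, with crossed diet groups. The interferon list had 14 of 27 positive, and Stat2 gave -0.41 ± 0.17 with -0.04 by a second probe set.

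The male-biased genes of liver were almost all negative, 19 of 20, with a median of -0.23, but 2 (10% against 5.96% of all genes) had an unadjusted p under 0.05. Slco1a1 read 10.28, 10.05 and 10.04 in wild-type controls and 10.10, 10.34 and 10.26 with quercetin. POR-null controls read 8.98, 9.03 and 9.72 and POR-null quercetin arrays 7.58, 8.62 and 9.13, which overlapped. Among the POR-null quercetin arrays Elovl3 read 7.74 in array 1, 8.84 in array 2 and 8.81 in array 3. Male-biased genes in array 1, at a mean of -0.68 relative to all arrays, were the lowest of the 12, against -0.28 and -0.11 in arrays 2 and 3. Acute phase genes in the same arrays averaged 0.82, 0.23 and -0.01, the reverse order. With array 1 left out the male-biased genes had a median of -0.20, and that of the acute phase genes went from 0.16 to -0.02.

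In the acute phase list 22 of 32 were positive and 0 had an unadjusted p under 0.05. Orm2, an acid glycoprotein, read 9.05, 6.81 and 6.26 in POR-null quercetin arrays and 6.77, 6.22 and 5.87 in POR-null controls, against 4.16 to 4.83 in wild type. Its interaction was 1.33 ± 0.69, and 0.50 without POR-null quercetin array 1. Saa2 and Lcn2, named after their values were seen, read 12.21 and 10.95 in that array, and gave 1.99 ± 1.05 and 1.11 ± 0.72 over all arrays. Without POR-null quercetin array 1, Saa2 gave 1.10 and Lcn2 0.31. The part of this array in the male-biased genes was not tested beyond its omission. Lifr, a receptor of the interleukin 6 family on the female-biased list, gave -0.75 ± 0.30, and its other probe sets -0.29 and -0.38. The female-biased list had 11 of 21 positive and a median of 0.03.

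Markers of other cells were read beside these lists. The 7 hepatocyte markers had 2 positive and a median of -0.21, with 1 negative at an unadjusted p under 0.05, and a median of -0.04 without POR-null quercetin array 2. Exocrine pancreas markers were positive in 10 of 10 with a median of 0.96, 0 at an unadjusted p under 0.05, and their mean level reached 9.33 log2 units in POR-null quercetin array 3. Ctrb1, a chymotrypsinogen, read 8.04, 8.75 and 10.95 in the POR-null quercetin arrays and 7.46 to 9.71 in the other 9. Without that array the list's median was 0.13. Macrophage and Kupffer markers were negative in 11 of 12 with a median of -0.24, and 0.08 without wild-type quercetin array 3. Lyz2, the lysozyme of macrophages, read 9.04 in that array and 8.49 in wild-type control array 1, against 6.89 to 8.01 in the other 4 wild-type arrays. Endothelial markers were negative in 7 of 8 (median -0.17), and Clec4g, of liver sinusoids, gave -0.51 ± 0.18 with -0.05 by a second probe set. Stellate and matrix markers were negative in 8 of 10 (median -0.16), with Col1a1 at -0.31 ± 0.12 from readings of 5.27 to 5.60 and 0.17 by a second probe set. The part of these cells in the gene lists was not tested.

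The single values depended on single arrays to different degrees. With each array left out in turn Lcat, F11r, Kmo, Deptor and Alas1 kept their sign and lay between -0.62 and -0.52, 0.63 and 0.79, -0.88 and -0.67, 0.86 and 1.13, and 0.75 and 1.11. Ctrb1 ranged from 0.49 to 1.94, Orm2 from 0.50 to 1.89 and Cyp51 from 0.63 to 1.64. The median of the clock genes was 0.13 without wild-type control array 2, that of the immediate early genes 0.08 without wild-type quercetin array 2, that of the heat shock genes 0.09 without POR-null control array 1 and that of the urea cycle and amino acid genes -0.07 without POR-null quercetin array 2. With wild-type control array 1 and POR-null quercetin array 3 both left out, a choice made after seeing the data, 4 probe sets passed at an adjusted p under 0.05. They were Sdc4 (-2.68), Timd2, a receptor of the TIM family (-1.14), Lactb2, a nuclease of the beta-lactamase fold (-1.03), and 1 probe set without a single gene symbol (-1.77). With all arrays Timd2 gave -0.73 ± 0.29 and Lactb2 -0.67 ± 0.24.

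**Figure D5:**
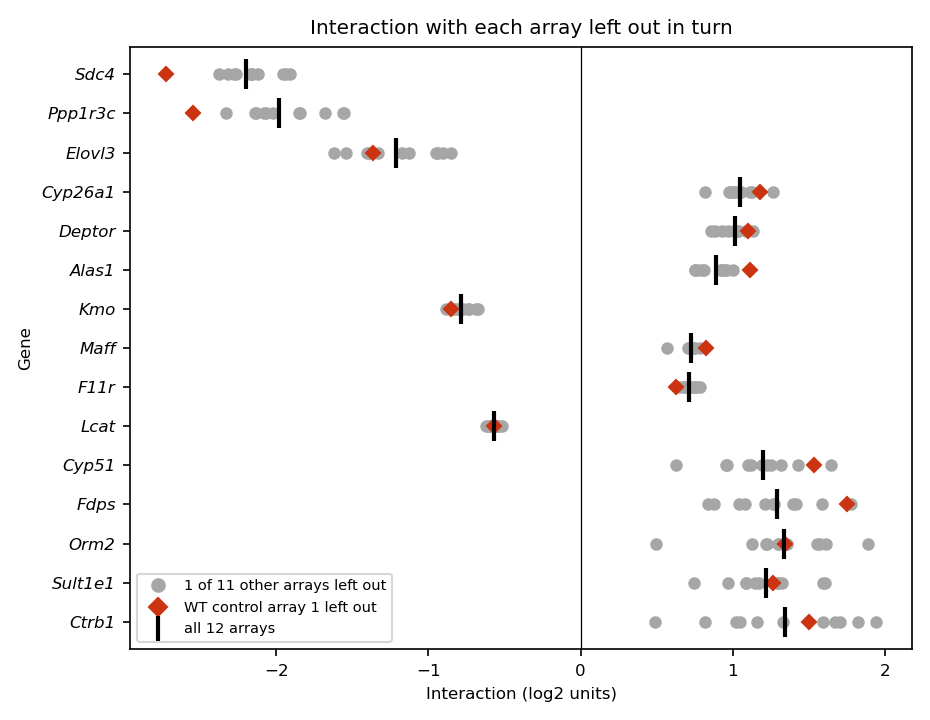
Interaction (log2 units) of 15 genes with all 12 arrays (black bars) and with each array left out in turn (points; red diamonds mark the fit without wild-type control array 1). Lcat (-0.62 to -0.52), F11r and Kmo stay in narrow ranges, Sdc4 and Ppp1r3c move farther from 0 without wild-type control array 1 (-2.73 and -2.55), and Ctrb1 ranges from 0.49 to 1.94.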

How the data were processed

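Affymetrix mouse 430A arrays measured liver RNA of 12 pools in 4 groups, taken from the labels. The deposited table holds the authors' log2 expression values, as read from their range of 2.57 to 14.17. MAS5 and RMA are named, with neither version nor role, in the submitters' processing notes, so the summary behind the values is not given in the sources used here. Of 22690 probe sets 64 AFFX controls were left out. Of the 22626 tested, 20380 had 1 gene symbol, 691 several and 1555 none.

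A model with 4 group means (8 residual degrees of freedom) was fitted with limma 3.58.1 in R 4.3.3, its variance prior following intensity and its p-values adjusted by Benjamini-Hochberg across all probe sets, and was tested on simulated data. The p-values are two-sided and measure the spread between pools, whose number limits the precision. A gene was represented by its brightest probe set with 1 symbol. Named were the 12 genes of lowest interaction p in each direction, 3 of each list, 6 crossed genes in each direction and 16 fixed drug genes. Members and lists were chosen with earlier results of these data known. Alternatives were a filter, normalizations, variance priors, array weights, a pool block, gene means and single arrays left out. Figures used Python 3.11.15 and matplotlib 3.10.9.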

Additional observations from a re-analysis of the deposited data

How the results depend on the processing

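With each array left out, 0 to 1 probe sets passed for the interaction (1, Sdc4, without wild-type control array 1), and 0 passed with the replicate block, which gave 1386 at an unadjusted p under 0.05 against 1397. With wild-type control array 1 and POR-null quercetin array 3 left out, chosen after seeing the data, 4 passed, and 2224 had such a p (1115 positive, 1109 negative). The unadjusted count was 888 with the filter (466 positive, 422 negative) and 754 with gene means (379 and 375), where fewer features were tested, 1369 to 1714 under the normalizations, priors and weights, and 1054 to 2411 with single arrays left out (537 to 1222 positive, 515 to 1189 negative). For the wild-type response 0 to 151 probe sets passed with single arrays left out and 1342 to 3425 had an unadjusted p under 0.05; for the POR-null response these were 0 to 4 and 1081 to 1811. The block gave 2 and 0 calls, with 1922 and 1558 at the unadjusted p. Of 18 same-numbered pairs of arrays 5 correlated above 0.1 (median 0.0455), and of 36 other pairs 6 (median -0.011); pairing was taken only if every same-numbered pair did, which was not met. Over 132 genes and 21 alternatives, 34 of 2761 values reversed, in 9 drug genes with values near 0. Cyp3a11 gave 0.058 after quantile normalization, 0.00083 after median centring and 0.037 without both arrays. Cyp2b10 gave -0.11 and Gclc 0.028 with array weights, and Cyp1b1 -0.029 as a gene mean. With single arrays left out Cyp3a11 ranged from -0.053 to 0.037, Cyp1b1 from -0.022 to 0.19, Cyp2b10 from -0.38 to 0.53, Cyp4a14 from -0.47 to 0.0087, Cyp7a1 from -0.22 to 0.47, Gclc from -0.17 to 0.18, Hmox1 from -0.56 to 0.012, Sult1a1 from -0.12 to 0.20 and Nqo1 from -0.068 to 0.13. The cause was not tested. The pseudocount alternative was not run because the values are log2.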
